A study of Mus musculus with 26 samples.

Results

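T cell acute lymphoblastic leukaemia (T-ALL) that carried a Rag deficiency was set against normal thymocytes of the same mouse strain at the TN4 stage. The leukaemia group consisted of 3 arrays (samples 8, 9 and 10 of the series), all labelled as Rag-deficient T-ALL of C57BL/6 mice. The normal group consisted of 3 arrays (samples 14, 21 and 26) of C57BL/6 thymocytes that were triple negative for CD4, CD8 and CD3, lacked CD44 and CD25 and carried CD28. These 6 arrays, chosen by their labels alone, are part of 26 in the series, which has 10 arrays of T-ALL and 16 of thymocytes at 7 stages. The series compares T-ALL with the stages of T cell development, and this pair holds the strain constant in that comparison. All material was taken from mice. Which Rag gene was disrupted, by which allele, the animals' age and how the leukaemia arose is not stated in the labels, nor is it said which samples were sorted and which were whole cell suspensions. Nothing in the labels ties each array to an animal of its own, so the p-values reflect only the spread of arrays within groups, which may be technical. Each of the 3 leukaemia arrays is called a tumour here.

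T-ALL is a cancer in which immature T cells accumulate. In the thymus, progenitors pass through the early thymic progenitor (ETP), TN2, TN3a and TN3b stages to TN4, and then through the immature single positive (ISP) stage to the CD4 and CD8 double positive (DP) stage. The RAG1 and RAG2 recombinase joins the gene segments of the antigen receptor, and a rearranged beta chain paired with pre-T alpha lets cells pass beta-selection, the step between TN3a and TN3b. Thymocytes without the recombinase normally stop before that step, so that TN4 is a stage such mice do not fill. Notch1 signalling commits progenitors to the T lineage and is normally shut down after beta-selection. Activating Notch1 mutations and ectopic expression of TAL1, LMO2 or LYL1 are known in T-ALL of mice and humans.

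The 2 groups were well separated in overall profile. The tumours detected 43.46%, 44.04% and 44.21% of probes, and the TN4 arrays 37.37%, 40.63% and 38.18%. Pearson correlations across probes were 0.955 to 0.965 among tumours, 0.957 to 0.981 among TN4 arrays and 0.906 to 0.937 between the groups. TN4 replicate 1 stood apart, with 1996 probes more than 2-fold from both other TN4 arrays, against 411 and 419 for replicates 2 and 3. The corresponding numbers for tumours 1, 2 and 3 were 868, 1420 and 1011. The arrays lay on 7 slides, with all 3 tumours on slide 3 and 0 slides shared between tumours and TN4, and the 2 groups came in separate tables. Tissue, slide and table therefore cannot be told apart in any difference below. These were bulk samples, in which fewer cells of a type and less RNA per cell cannot be told apart.

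Levels are given as log2 of the normalised intensity, and differences as log2 of tumour over TN4, so that 1 unit is 2-fold. A gene was called where limma's Benjamini-Hochberg adjusted p, over all probes tested, was under 0.05, and each gene stands for its brightest probe. Of 28736 probes tested, 1839 (6.4%) passed, of which Rag-deficient T-ALL was higher for 1250 (4.35%) and lower for 589 (2.05%). At least 2-fold and called were 1485 probes (5.17%), 1006 (3.5%) higher and 479 (1.67%) lower. In genes, 781 of 15719 (4.97%) were higher and 371 (2.36%) lower, with a median difference of -0.01 over all genes. Every gene list count below is to be read beside these shares. The 3 tumours and the 3 TN4 arrays did not overlap for 4524 genes (28.8%). When arrays were scaled by their medians the median difference shifted to 0.33 and 89.8% of 2431 called probes were higher, against 68% here. Without TN4 replicate 2 the number of called probes fell to 1074. Where a result is said to change with an array left out, the array is 1 of these 6. A difference is given as "at least N-fold" where no array of the dimmer group detected the probe. Of the 1006 probes, 441 were not detected on any TN4 array, and of the 479, 120 were not detected in any tumour.

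**Figure D1:**
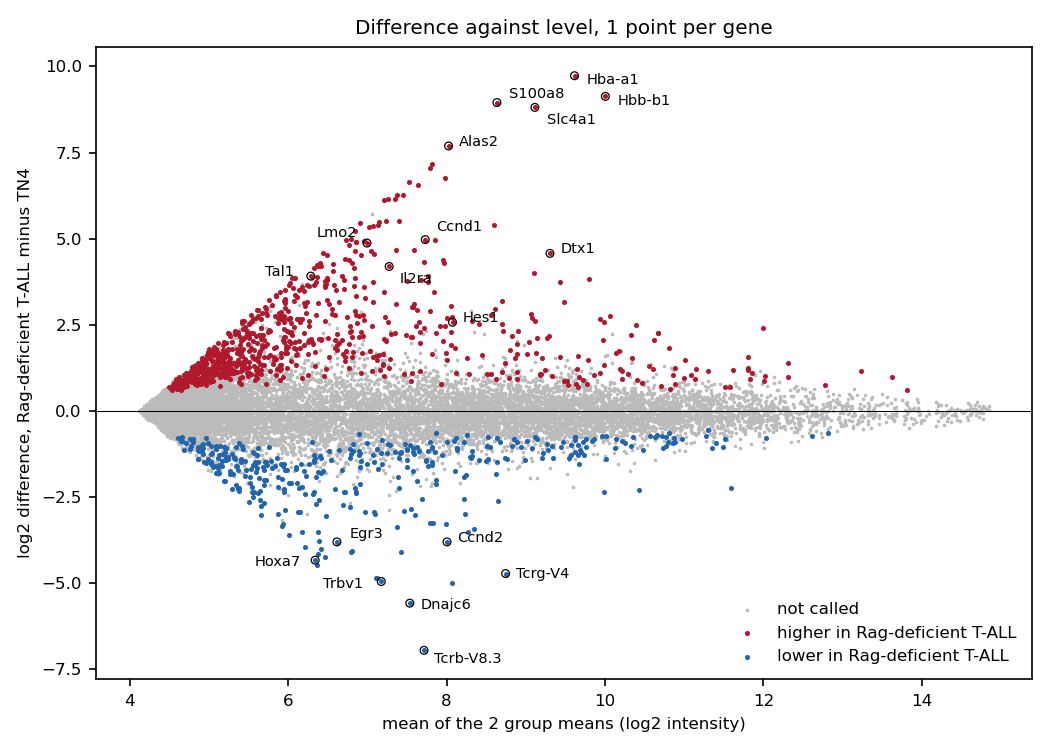
Log2 difference of Rag-deficient T-ALL over TN4 (vertical axis) against the mean log2 intensity of the 6 arrays (horizontal axis), 1 point per gene, with 781 genes called higher in red, 371 called lower in blue and the rest in grey. Haemoglobin genes and S100a8 lie highest, near 9 to 10 on the log2 scale, and Tcrb-V8.3 lies lowest at -6.96.

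The Rag genes and the markers of the TN4 gate were examined first as a check of the labels. Rag1 had 8.87, 9.38 and 9.7 in the tumours, against 10.36, 9.67 and 9.82 in TN4, and was not called (difference -0.63, adjusted p = 0.506). Rag2 had 4.24, 6.57 and 5.74 in the tumours, against 5.8, 5.23 and 5.78 in TN4 (difference -0.09, adjusted p = 0.972). Transcript from both genes was thus measured in Rag-deficient T-ALL, 2 of 3 tumours detecting Rag2. A probe outside a deleted part would read the rest of a transcript, so these levels do not check the label. Of 11 sort markers, 2 were called higher and 0 lower.

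Il2ra, which encodes the CD25 that the TN4 gate leaves out, was the gate marker with the larger difference. Il2ra had 9.04, 9.38 and 9.69 in the tumours, against 5.33, 5.2 and 5.01 in TN4, an 18.3-fold difference (log2 4.19, SE 0.76, adjusted p = 0.00118). All 3 tumours lay far above all 3 TN4 arrays. Cd44, the other negative marker, had 6.76, 7.69 and 7.45 in the tumours, against 5.84, 5.92 and 5.46 in TN4 (adjusted p = 0.0376), a call kept only when tumour 1 was the array left out (adjusted p of Cd44 0.0772 to 0.146 without each of the others). The messages of the CD3 complex were abundant in both groups although the gate takes cells without surface CD3. Cd3e averaged 13.08 ± 0.25 in tumours and 12.84 ± 0.2 in TN4, and Cd3g 13.58 ± 0.24 in tumours and 13.38 ± 0.08 in TN4 (SD, n = 3 each). Cd8b1, one chain of CD8, averaged 13.11 ± 0.54 in tumours and 13.09 ± 0.09 in TN4 (SD, n = 3 each), between its means of 10.66 in TN3b and 14.06 in ISP. Cd8a was not detected in either group. Cd28 averaged 8.81 ± 0.31 in tumours and 9.29 ± 0.26 in TN4 (SD, n = 3 each) and was not called, nor was Cd4 (difference 0.55).

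Several segments of the antigen receptor loci were far lower in the tumours. This set of probes was picked by name from the array after the data had been seen. Of its 27 probes, 21 were tested, of which 7 were called lower and 0 higher in Rag-deficient T-ALL, beside 2.05% lower and 4.35% higher over all probes. Tcrb-V8.3, a variable segment of the beta locus, had 4.14, 4.38 and 4.18 in the tumours, against 11.49, 11 and 11.1 in TN4. No tumour detected it, a difference of at least 104-fold (log2 -6.96, SE 0.19, adjusted p = 7.11e-17). Trbv1, another beta variable segment, had 4.48, 5.06 and 4.54 in the tumours, against 9.64, 9.55 and 9.77 in TN4, or 31.1-fold lower (adjusted p = 3.4e-14). In normal development both signals were at or near background in ETP and TN2 and climbed from TN3a. The means of Tcrb-V8.3 were 4.47, 4.86, 8.49, 10.74, 11.2, 11.55 and 12.04 from ETP through TN2, TN3a, TN3b, TN4 and ISP to DP.

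In the gamma locus, Tcrg-V4, Tcrg and Tcrg-V5 showed the same direction. Tcrg-V4 had 6.7, 6.42 and 6.03 in the tumours, against 11.02, 11.26 and 11.04 in TN4, which was 26.5-fold lower (log2 -4.73, SE 0.62, adjusted p = 2.61e-05). Tcrg, a probe named for the locus as a whole, had 4.42, 4.25 and 4.83 in the tumours, against 9.15, 8.15 and 7.56 in TN4 (13.8-fold lower, adjusted p = 0.000725). For both genes the groups lay far apart. Some normal stages were as low as the tumours. Tcrg-V4 had 6.2 and 5.29 in DP, and lay above the tumours in the other stages. Tcrg had 4.35 and 4.6 in ETP and 4.31 and 4.4 in DP. Trav11d, an alpha variable segment, was lower by 2.71 on the log2 scale, with 4.8, 5.29 and 4.89 in the tumours, against 6.68, 8.55 and 7.89 in TN4 (adjusted p = 4.58e-05). It was also near the tumour level in TN3b (5.07 and 4.97) and ISP (5.08 and 4.73), and higher in DP (7.03 and 6.45). Tcrg-V5 was at least 1.77-fold lower (adjusted p = 0.0162), a call lost without tumour 2 (0.0528), TN4 replicate 1 (0.104) or TN4 replicate 3 (0.067).

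Other segments did not follow. Tcrg-V7 of the gamma locus had 5.82, 5.69 and 5.23 in the tumours, against 6.06, 5.44 and 5.59 in TN4 (difference -0.11, adjusted p = 0.909). Trav9n-4 had 12.89, 12.09 and 12.29 in the tumours, against 10.54, 11.99 and 11.61 in TN4, and was not called (difference 1.04, adjusted p = 0.142). The 2 probes of Tcrb-V8.2 disagreed. One read 14.48, 14.51 and 14.52 in the tumours and 14.51, 14.49 and 14.51 in TN4, nearly the same level on all 6. That probe read 13.7 to 14.78 over all 26 arrays, with 14.51 and 14 in ETP. The other read 4.58, 4.39 and 7.73 in the tumours, against 11.55, 11.53 and 11.54 in TN4, a difference of -5.97 (adjusted p = 0.0063) that was -7.04 without tumour 3, the only tumour to detect it. Segments of a family can be close in sequence, so a probe may read more than 1 of them. Why the 2 Tcrb-V8.2 probes disagreed was not tested. Among genes of recombination and receptor signalling outside the segments, 2 of 21 were called higher and 0 lower. These were Cd2, an adhesion receptor (11.58, 11.03 and 10.72 in tumours, against 8.64, 10.24 and 9.83 in TN4, adjusted p = 0.0179), and Xrcc6, which encodes the Ku70 end-joining protein (14.11 ± 0.01 in tumours and 13.51 ± 0.16 in TN4, SD, n = 3 each, adjusted p = 0.0486). Xrcc6 lost its call whichever array was left out (0.0528 to 0.168), and Cd2 lost its call without tumour 1 (adjusted p = 0.0875) and without TN4 replicate 1 (adjusted p = 0.128). Ptcra, the pre-T alpha chain, averaged 8.44 ± 0.37 in tumours and 7.69 ± 0.28 in TN4 (SD, n = 3 each, adjusted p = 0.291). Dntt, which encodes terminal transferase, averaged 9.27 ± 0.28 in tumours and 10.7 ± 0.56 in TN4 (SD, n = 3 each, adjusted p = 0.0908).

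The Notch pathway held 33 tested genes, of which 6 (Dtx1, Il2ra, Hes1, Notch3, Heyl and Dll1) were called higher and 1 (Adam17) lower, beside 4.97% and 2.36% of all genes. The median difference of the list was 0.31. Dtx1, a Deltex ubiquitin ligase and Notch target, had 11.71, 11.86 and 11.22 in the tumours, against 6.46, 7.04 and 7.56 in TN4, 23.8-fold higher (log2 4.57, SE 0.36, adjusted p = 1.27e-08). The tumours also exceeded every normal stage, among which TN3a came closest with a mean of 10.24. Hes1, a transcriptional repressor and Notch target, had 9.27, 9.74 and 9.08 in the tumours, against 6.8, 6.9 and 6.67 in TN4 (5.96-fold higher, log2 2.57, SE 0.3, adjusted p = 4.68e-06). Unlike Dtx1, its tumour level lay below the means of ETP, TN2 and TN3a (10.37, 10.07 and 10.86). Il2ra, given above and also a Notch target, had 10.72 in TN2 and 11.04 in TN3a, again above the tumours.

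Among the receptors, Notch3 had 9.41, 10.23 and 10.23 in the tumours, against 7.26, 7.21 and 7.87 in TN4, 5.69-fold higher (adjusted p = 0.000153), and 11.07 in TN3a. Notch1 was high in both groups and not called, with 10.39, 11.51 and 11.43 in the tumours, against 10.91, 10.5 and 10.19 in TN4 (difference 0.57, adjusted p = 0.395). Notch2 was not detected in either group. Of the ligands, Dll1 had 6.3, 5.94 and 6 in the tumours and was not detected in TN4, at least 2.84-fold higher (adjusted p = 0.00149). Jag2 and Dll4 were near background and not called. Heyl, a repressor of the Hes family, had 7.29, 5.56 and 6.27 in the tumours and was not detected in TN4, at least 3.48-fold higher (adjusted p = 0.021). Its call was lost without tumour 1 (adjusted p = 0.116) and without any 1 of the TN4 arrays (0.0556 to 0.0667).

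Adam17, a protease that cleaves Notch receptors, was lower at 7.57, 7.32 and 8.09 in the tumours, against 8.54, 8.39 and 8.66 in TN4 (adjusted p = 0.0405). The call of Adam17 was kept only when tumour 3 was the array left out (0.0736 to 0.184 without each of the others). Nrarp, a feedback inhibitor of Notch, had 10.62, 8.78 and 9.06 in the tumours, against 7.39, 6.98 and 7.2 in TN4. The groups did not overlap, but the difference of 2.3 was not called (adjusted p = 0.15). Myc, another Notch target, averaged 7.8 ± 0.41 in tumours and 6.96 ± 0.43 in TN4 (SD, n = 3 each, adjusted p = 0.419). The transcription complex and the secretases showed differences between -0.89 (Psen2) and 0.36 (Ncstn), with none called. Rbpj, the DNA-binding partner of Notch, was not detected in the tumours by its brightest probe and on 1 of 3 TN4 arrays.

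**Figure D2:**
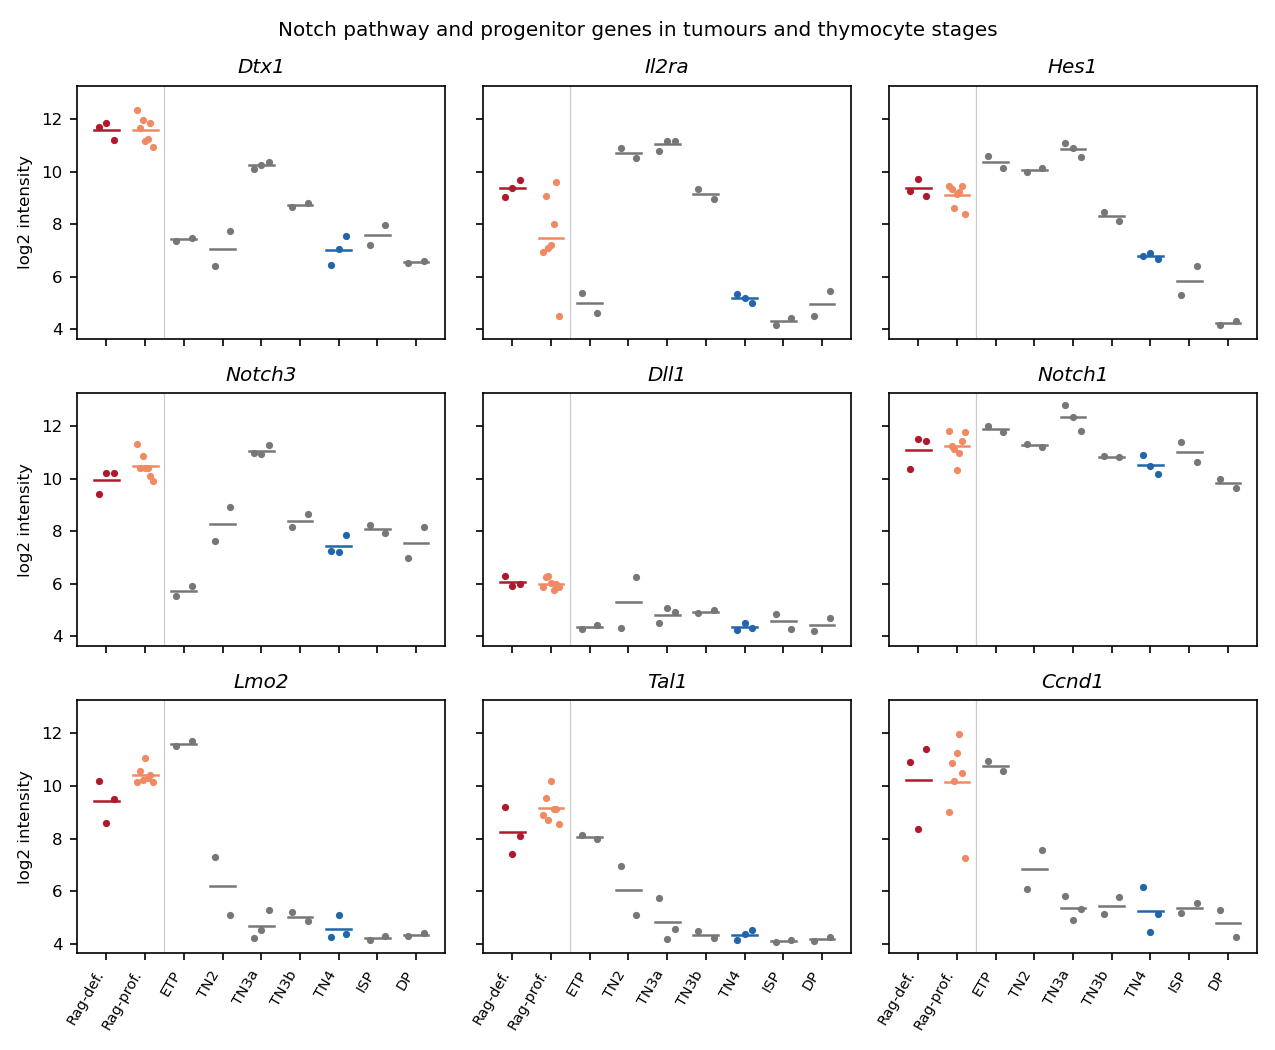
Log2 normalised intensity (vertical axis) of 9 genes on every array, 1 panel per gene, with Rag-deficient T-ALL, Rag-proficient T-ALL and the 7 thymocyte stages from ETP to DP along the horizontal axis; points are arrays and lines are group means. Dtx1 is higher in tumours than at any stage, Hes1, Il2ra and Notch3 peak in TN3a, and Lmo2 peaks in ETP.

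Lmo2 and Tal1, 2 oncogenes of T-ALL, were higher. Of 36 tested oncogenes and suppressors, 3 (Lmo2, Tal1 and Lyl1) were called higher and 2 (Hoxa7 and Hoxa5) lower, beside 4.97% and 2.36% of all genes. In both directions together 13.9% of the list were called, against 7.33% of all genes, and its median difference was -0.02. Lmo2, an adaptor that bridges TAL1 and GATA factors, had 10.18, 8.61 and 9.5 in the tumours, against 4.23, 5.07 and 4.37 in TN4, 29.2-fold higher (log2 4.87, SE 0.43, adjusted p = 8.61e-08). Tal1, a helix-loop-helix factor of blood progenitors and red cell precursors, had 9.21, 7.41 and 8.1 in the tumours, against 4.13, 4.36 and 4.51 in TN4, where no array detected it. That is at least 12.7-fold higher (log2 3.91, SE 0.48, adjusted p = 9.78e-06). Lyl1, a relative of Tal1, had 7.46, 5.81 and 6.84 in the tumours, against 4.48, 5.41 and 5.51 in TN4 (adjusted p = 0.0108), a call lost without tumour 1 (0.0756) or TN4 replicate 1 (0.0789). In normal stages all 3 were highest in ETP, with means of 11.62 for Lmo2, 8.05 for Tal1 and 10.64 for Lyl1.

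The tumours differed among themselves in these genes, in the order tumour 1, tumour 3, tumour 2 from high to low. Of all genes 2883 (18.3%) had this order. It was found for 7 of 13 erythroid genes (53.8%) and 9 of 21 progenitor genes (42.9%). It was also found for 17 of 41 genes of MYC activity and ribosome assembly (41.5%) and 11 of 29 immediate early and heat shock genes (37.9%). The T-ALL oncogene list had it for 11 of 36 genes (30.6%). Lists under the share of all genes included the myeloid (0 of 30), apoptosis (6.9%) and stromal (8.7%) ones. The order was taken from Lmo2, Tal1 and Lyl1 after their values were seen, so these counts are no separate check of it. The reason for this order was not tested. Of the progenitor genes 7 were called higher and 0 lower, with a median of 0.47. Nfe2, a factor of progenitors, megakaryocytes and red cells, had 10.7, 9.19 and 9.87 in the tumours, against 4.81, 5.37 and 5.58 in TN4 (25.4-fold, adjusted p = 1.66e-08). Gfi1b, a repressor used in red cell and platelet precursors, had 8.12, 6.47 and 7.39 in the tumours, against 4.7, 5.14 and 5.37 in TN4 (4.78-fold, adjusted p = 0.00224). Not all progenitor genes were higher. Kit, the stem cell factor receptor, averaged 7.24 ± 1.39 in tumours and 8.14 ± 0.52 in TN4 (SD, n = 3 each), and Hhex, a homeobox factor, 6.43 ± 0.14 in tumours and 6.61 ± 0.95 in TN4, neither of them called. The part of red cell precursors in the levels of Tal1, Lmo2, Lyl1, Nfe2 and Gfi1b was not tested.

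The start of Tal1 is shown as that of an oncogene which red cell precursors also express. The window is 300 bases around the RefSeq start, most of them upstream of it, at chr4:115056176-115056475 on the plus strand of GRCm38.p6. Capitals mark TTATCT, which is AGATAA on the other strand, the core bound by GATA factors, and TGGGAA, the core bound by the Notch partner RBPJ. Each was searched on both strands.
Tal1: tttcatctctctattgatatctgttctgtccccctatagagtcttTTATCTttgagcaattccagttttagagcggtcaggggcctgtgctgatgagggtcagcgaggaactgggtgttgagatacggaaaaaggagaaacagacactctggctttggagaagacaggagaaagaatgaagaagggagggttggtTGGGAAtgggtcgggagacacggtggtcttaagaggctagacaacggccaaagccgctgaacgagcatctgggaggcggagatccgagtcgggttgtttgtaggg

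Over the RefSeq table AGATAA was in 3672 of 32851 such windows (11.2%) and TGGGAA in 8397 (25.6%). Of the 6 Notch pathway genes called higher, 4 had a window in the table (Dll1, Dtx1, Il2ra and Notch3), and neither motif was in any of these. A match describes letters only and says nothing of binding in these cells.

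Hoxa7 was not detected in the leukaemia and was present at every thymocyte stage. It had 4.15, 4.2 and 4.16 in the tumours, against 8.5, 8.81 and 8.23 in TN4, at least 16.2-fold lower (log2 -4.34, SE 0.31, adjusted p = 2.37e-09). Its stage means declined from 10.31 in ETP to 7.36 in DP. Hoxa5 was likewise not detected in the tumours, with 5.83, 6.59 and 6.26 in TN4, at least 3.33-fold lower (adjusted p = 0.027), a call of Hoxa5 kept only when TN4 replicate 1 was the array left out (0.0641 to 0.107 without each of the others). Both are homeobox factors of the A cluster, which progenitors express. Hoxa9 and Hoxa10 were near background in both groups and not called. Bcl11b and Gata3, factors of T lineage identity, were not called. Bcl11b averaged 12.05 ± 0.49 in tumours and 12.28 ± 0.12 in TN4, and Gata3 10.48 ± 0.55 in tumours and 10.5 ± 0.67 in TN4 (SD, n = 3 each). Cdkn2a, the locus of the p16 and p19 suppressors, had 6.48, 6.45 and 6.22 in the tumours, against 4.86, 5.05 and 4.38 in TN4, and just missed the threshold (adjusted p = 0.0592).

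The largest increases were in genes of red cells. Of 13 tested erythroid genes 11 were called higher and 0 lower, beside 4.97% of all genes, with a median difference of 3.57. Hba-a1, an alpha globin, had 14.38, 14.48 and 14.58 in the tumours, against 4.19, 5.97 and 4.11 in TN4, a fitted log2 difference of 9.73 (SE 0.48, adjusted p = 3.08e-12), or 10.35 without TN4 replicate 2, the only TN4 array to detect it. Hbb-b1, a beta globin, had 14.5, 14.61 and 14.6 in the tumours, against 5.09, 6.44 and 4.8 in TN4 (log2 9.13, adjusted p = 3.81e-14). Of its 11 probes, 10 were called, with log2 differences of 6.95 to 9.88. Slc4a1, the band 3 anion exchanger of the red cell membrane, had 13.75, 13.23 and 13.58 in the tumours, against 5.24, 4.32 and 4.58 in TN4 (log2 8.81, adjusted p = 2.47e-14). The groups did not overlap for any of the 3 genes. Each was detected on 1 of 3 TN4 arrays, so these differences set bright signals against near-background ones and give no exact fold. Alas2, the red cell enzyme of haem synthesis, had 12.43, 11.12 and 12.05 in the tumours and was not detected in TN4, at least 157-fold higher (adjusted p = 2.26e-13).

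Epor, the erythropoietin receptor, was at least 4.84-fold higher. Car1 and Car2, carbonic anhydrases not detected in TN4, were at least 57.5-fold and 36.3-fold higher, and Klf1, the factor that drives globin genes, 8.88-fold higher. Gata1, the master factor of the lineage, was not called (difference 0.94, adjusted p = 0.344), nor was Tfrc, the transferrin receptor that dividing T cells also use (difference 0.79, adjusted p = 0.599). Outside the list, Aqp1, a water channel abundant in red cells, was at least 61.3-fold higher and Trim10, which acts in red cell maturation, at least 64.4-fold higher. The summed level of the 13 erythroid genes was 16.15, 15.95 and 16.19 in the tumours, against 10.33, 11.34 and 11.39 in TN4. A summed level is the log2 of the summed linear intensities of a list, so its brightest genes dominate it. All 13 were detected in each tumour, against 4, 5 and 2 on the TN4 arrays.

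The starts of Alas2 and Epor are shown as the members of this list whose windows hold the GATA core, out of 6 of the 11 called genes with a window in the table. They lie at chrX:150547167-150547466 on the plus strand and chr9:21963527-21963826 on the minus strand of GRCm38.p6, with the same capitals as above. The Alas2 window also holds TTCCCA, the RBPJ core on the other strand.
Alas2: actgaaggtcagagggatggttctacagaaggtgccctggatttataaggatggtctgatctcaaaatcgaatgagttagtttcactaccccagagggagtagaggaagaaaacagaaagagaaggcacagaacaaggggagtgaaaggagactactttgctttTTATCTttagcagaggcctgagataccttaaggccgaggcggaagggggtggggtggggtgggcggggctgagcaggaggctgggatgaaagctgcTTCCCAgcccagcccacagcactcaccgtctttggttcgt
Epor: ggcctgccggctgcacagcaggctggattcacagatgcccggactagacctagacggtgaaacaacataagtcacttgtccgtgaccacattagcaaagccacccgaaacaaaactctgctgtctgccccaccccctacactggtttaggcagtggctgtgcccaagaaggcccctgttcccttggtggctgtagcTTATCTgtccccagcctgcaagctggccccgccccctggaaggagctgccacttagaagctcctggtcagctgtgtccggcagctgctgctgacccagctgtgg

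Myeloid genes made up the other large block. Of 30 tested myeloid and dendritic genes 23 were called higher and 0 lower, with a median difference of 2.9. S100a8, a calcium-binding protein of neutrophils, had 12.56, 13.54 and 13.22 in the tumours and was not detected in TN4, at least 370-fold higher (adjusted p = 6.62e-08). Its partner S100a9 had 10.61, 12.06 and 11.29 in the tumours and was at least 107-fold higher (adjusted p = 2.1e-06). Both were highest in tumour 2. Lyz1, a lysozyme of myeloid cells, had 11.28, 11.45 and 11.32 in the tumours, against 4.29, 4.61 and 4.89 in TN4 (108-fold, adjusted p = 1.23e-10), and was also high in ETP with a mean of 11.99.

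Of the 15 genes with the largest increases, C1qb, Slc40a1, Vcam1 and Fcna were highest in tumour 3. C1qb, a complement chain made by macrophages, had 9.54, 9.59 and 11.7 in the tumours and was not detected in TN4, at least 52-fold higher (adjusted p = 9.56e-10). The log2 difference of C1qb was 6.13, or 5.4 without tumour 3. Slc40a1, the iron exporter of iron-recycling macrophages, had 10.37, 9.87 and 12.28 in the tumours (at least 76.9-fold, log2 6.63, or 5.89 without tumour 3). Vcam1, an adhesion molecule of stroma and macrophages, had 10.02, 10.11 and 12.63 in the tumours (at least 77.4-fold, log2 6.57, or 5.7 without tumour 3). Fcna, a lectin of macrophages, had 10.23, 8.81 and 11.98 in the tumours (at least 54.5-fold, log2 6.16, or 5.32 without tumour 3 and 6.9 without tumour 2). Apol11b, an apolipoprotein L family member, had 12.4, 10.6 and 11.21 in the tumours and was at least 114-fold higher.

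The summed level of the 30 myeloid genes was 14.14, 15 and 15.01 in the tumours, against 10.34, 10.64 and 10.5 in TN4. Tumours detected 28, 29 and 29 of them, against 6, 7 and 9 on the TN4 arrays. Stromal and epithelial genes were called higher for 4 of 23 and lower for 0 (summed level 11.21, 11.43 and 12.95 in tumours, against 9.44, 9.82 and 9.66 in TN4). B cell genes were called higher for 1 of 13 and lower for 3 (9.56, 10.22 and 9.12 in tumours, against 10.34, 10.6 and 10.51 in TN4). Ebf1, which defines early B cells, was not detected in either group. Transcripts of red and myeloid cells were thus present in all 3 tumours and mostly undetected in TN4, and their part in the other differences was not tested.

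**Figure D3:**
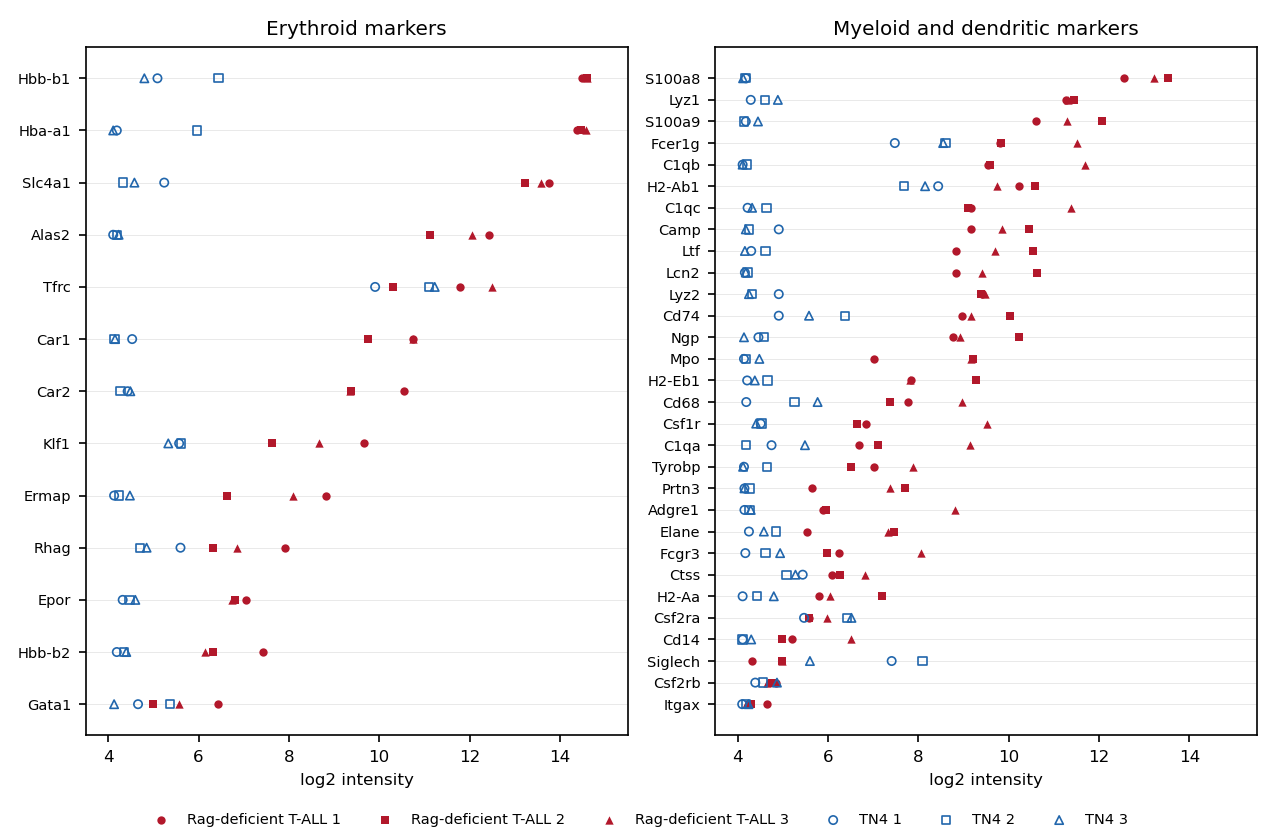
Log2 normalised intensity (horizontal axis) of 13 erythroid genes and 30 myeloid and dendritic genes on each array, with tumours as filled red symbols (circle 1, square 2, triangle 3) and TN4 as open blue ones. The tumours lie above TN4 without overlap for 11 of 13 erythroid and 26 of 30 myeloid genes, and lie below it for 1 myeloid gene, Siglech.

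Beside the receptor segments and Hoxa7, the largest decreases included 7 genes lower than at every stage. Dnajc6, the clathrin uncoating factor auxilin, had 4.84, 4.2 and 5.19 in the tumours, against 10.36, 10.29 and 10.34 in TN4 (48.1-fold lower, log2 -5.59, SE 0.32, adjusted p = 5.29e-11). All 7 stages had it at 10.24 or above. Bahcc1, a chromatin protein, was not detected in the tumours and had 8.5, 8.61 and 8.69 in TN4, at least 17.2-fold lower (adjusted p = 3.13e-11). Hmgn3, a nucleosome-binding protein, had 4.44, 4.25 and 5.37 in the tumours, against 9.4, 9.71 and 9.57 in TN4 (29.2-fold lower, adjusted p = 1.26e-06). Zfp518b, a zinc finger protein, was at least 16.6-fold lower and Jarid1b, the H3K4 demethylase also called Kdm5b, at least 14.5-fold lower. Repin1 (16.9-fold) and Rabl2 (17-fold) complete the 7.

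The other large decreases were not shared by every stage. Tes, a focal adhesion protein, had 6.27, 5.28 and 5.16 in the tumours, against 9.77, 11.13 and 10.81 in TN4 (31.9-fold lower, adjusted p = 9.45e-07), with its lowest stage mean, 7.43, in ISP. Fgf13 was 29.2-fold lower (adjusted p = 0.0029). H19, an imprinted non-coding RNA, was not detected in the tumours and had 8.11, 8.91 and 8.37 in TN4, at least 15.7-fold lower (adjusted p = 0.021). The call of H19 was kept only when TN4 replicate 1 was the array left out (0.0528 to 0.0812 without each of the others), and its mean was 13.41 in TN3a. A930013B10Rik was 17.2-fold lower, with a log2 difference of -4.11, or -3.48 without tumour 1.

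The D cyclins went in opposite directions. Ccnd1, cyclin D1, had 10.9, 8.35 and 11.39 in the tumours, against 6.17, 4.45 and 5.11 in TN4, 31.4-fold higher (log2 4.97, SE 0.88, adjusted p = 0.000976). Ccnd2, cyclin D2, had 6.19, 5.01 and 7.08 in the tumours, against 9.1, 10.46 and 10.17 in TN4, 14-fold lower (log2 -3.81, SE 0.6, adjusted p = 0.000285). Tumour 2 was lowest for both, and the log2 difference of Ccnd1 was 5.89 without tumour 2 and 4.38 without tumour 3. In normal stages Ccnd1 was highest in ETP (10.76, against 6.83 in TN2), whereas Ccnd2 stayed between 9.91 and 11.12 through TN4 and was at background in DP. Of 50 cell cycle genes, 1 was called higher and 2 lower, with a median of -0.06. The other decrease was Ccna2, cyclin A2 (4.49, 4.67 and 4.99 in tumours, against 6.64, 7.42 and 6.12 in TN4, adjusted p = 0.0211), lost without tumour 1 or 2 or TN4 replicate 1 or 2 (0.054 to 0.117). Mki67, the Ki-67 antigen, averaged 11.12 in tumours and 11.97 in TN4 (adjusted p = 0.202), and Top2a, topoisomerase II alpha, 11.77 in tumours and 11.65 in TN4 (adjusted p = 0.902).

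Egr3, Egr2 and Nr4a2, genes induced by receptor stimulation, were lower. Of 29 immediate early and heat shock genes 4 were called lower and 2 higher, beside 2.36% and 4.97% of all genes. The other 23 were not called, and the median of the list was -0.18. Egr3, a zinc finger factor induced downstream of the antigen receptor, had 4.58, 4.16 and 5.4 in the tumours, against 6.8, 9.65 and 9.12 in TN4 (log2 -3.81, SE 0.69, adjusted p = 0.00114). Egr2 had 5.37, 4.71 and 5.9 in the tumours, against 6.9, 8.99 and 8.31 in TN4 (6.67-fold lower, adjusted p = 0.00101), and Nr4a2 was at least 2.5-fold lower (adjusted p = 0.0022). TN4 replicate 1 was the lowest of its group for Egr2 and Egr3, and the log2 difference of Egr3 was -4.67 without it and -3.25 without TN4 replicate 2. The 2 increases were Ier3 (6.03-fold, adjusted p = 0.000341) and Klf4 (at least 2.11-fold, adjusted p = 0.00103).

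Genes of innate-like T and natural killer cells showed the same split between TN4 arrays. Of 16 such genes 4 were called lower and 2 higher, with a median of -1.02 and a summed level of 11.61, 11.57 and 12.24 in tumours, against 12.55, 13.08 and 12.74 in TN4. Blk, among the 4, had a log2 difference of -3.38 (adjusted p = 0.0451) and lost its call in 13 alternatives. With arrays left out, its call was kept only when tumour 2 was the array left out. Nkg7, a granule protein of killer cells, had 6.26, 5.6 and 6.42 in the tumours, against 8.59, 9.61 and 9.14 in TN4 (8.12-fold lower, adjusted p = 0.0003), and was far higher in ETP, TN2 and TN3a. Xcl1, a chemokine of activated killer and T cells, was not detected in the tumours and had 5, 8.85 and 8.9 in TN4, at least 8.44-fold lower (adjusted p = 0.00149). The log2 difference of Xcl1 was -3.3, or -4.6 without TN4 replicate 1, -2.67 without replicate 2 and -2.65 without replicate 3. Itgae, the CD103 integrin of the trafficking list, had 5.31, 6.24 and 4.95 in the tumours, against 6.79, 9.76 and 8.77 in TN4 (7.68-fold lower, adjusted p = 0.0012), and its log2 difference ranged from -3.77 without TN4 replicate 1 to -2.29 without TN4 replicate 2. The 2 increases, Tyrobp (at least 5.74-fold) and Fcer1g (4.51-fold), are signalling adaptors that myeloid cells share.

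**Figure D4:**
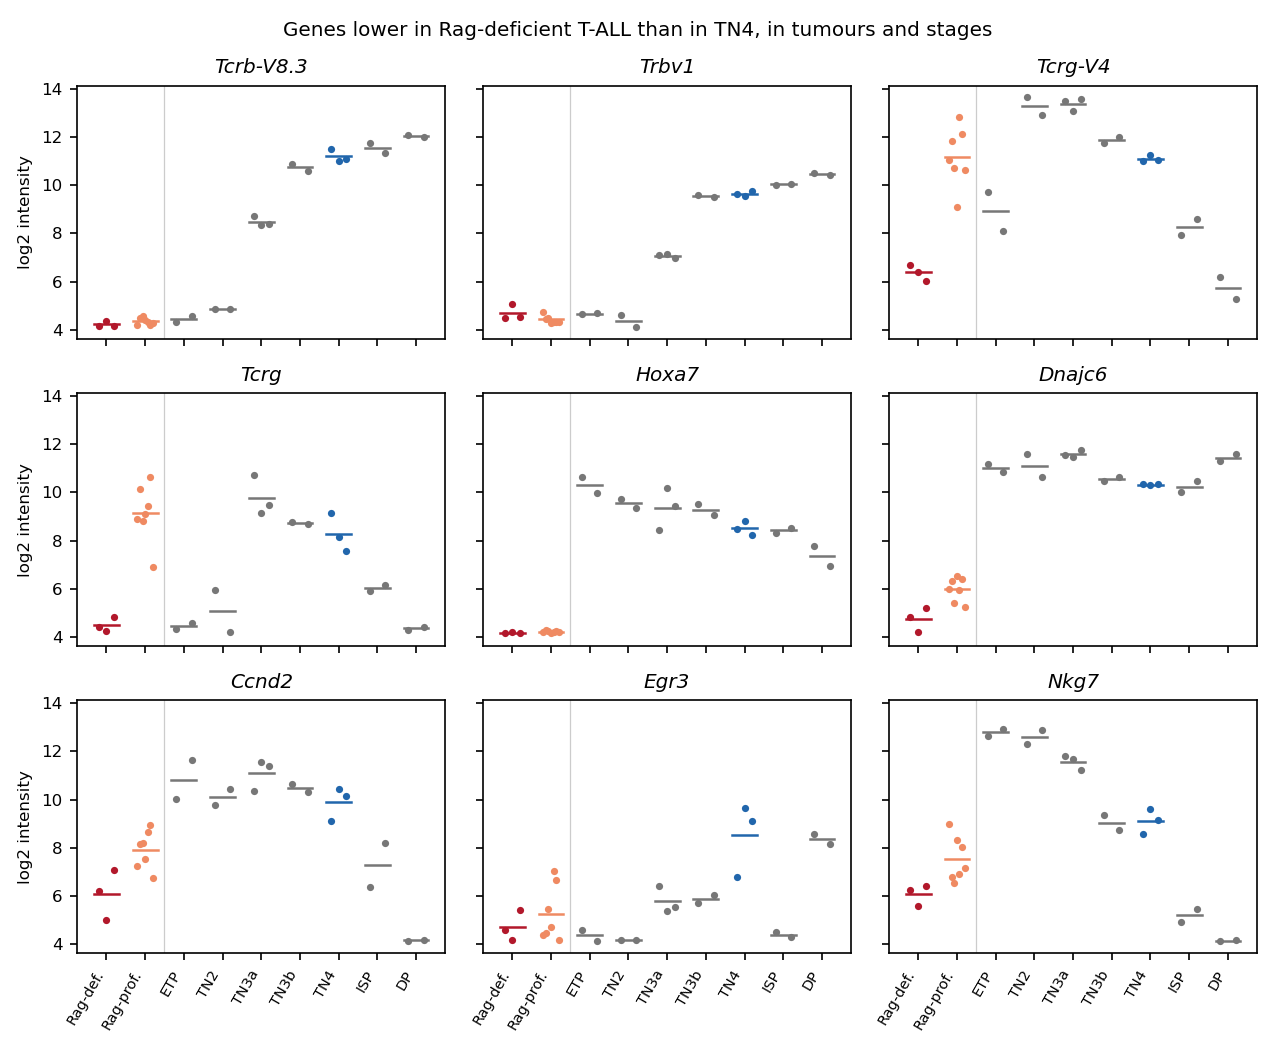
Log2 normalised intensity (vertical axis) of 9 genes lower in Rag-deficient T-ALL than in TN4, drawn by array as in the plot of Notch and progenitor genes by stage. Tcrb-V8.3, Trbv1 and Hoxa7 are low in both tumour groups, while Tcrg-V4 and Tcrg are low in Rag-deficient T-ALL and high in Rag-proficient T-ALL.

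Of 44 trafficking and adhesion genes 5 were called higher and 5 lower, with a median of -0.2. Cxcr4, the receptor for the chemokine CXCL12, was higher by 1.16 on the log2 scale (adjusted p = 0.00622). S100a10, an annexin partner, had 5.01, 8.51 and 5.09 in the tumours, against 9.26, 9.89 and 9.2 in TN4 (9.51-fold lower, adjusted p = 0.00358). Tumour 2 was the exception, and the log2 difference of S100a10 was -3.25, or -4.4 without it and -2.64 without tumour 1. The calls of S100a10 and Xcl1 were lost when only the 6 arrays were fitted. Cd69, an early activation marker, had 6.37, 4.95 and 7.06 in the tumours, against 7.38, 10.16 and 9.38 in TN4 (adjusted p = 0.0423), a call lost without tumour 1 or 2 or TN4 replicate 2 or 3 (0.0804 to 0.197).

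Of 48 genes of MHC class I and the interferon response 7 were called higher and 1 lower, with a median of 0.19. Rsad2, the antiviral enzyme viperin, had 12.01, 10.45 and 10.85 in the tumours, against 6.9, 7.49 and 6.9 in TN4, 16.1-fold higher (log2 4.01, SE 0.53, adjusted p = 2.75e-05) and above every stage. Ifitm1 was 8.21-fold and Ifitm3 7.7-fold higher, interferon-induced membrane proteins whose means in ETP (13.26 and 12.88) exceeded those of the tumours (9.58 and 10.08). B2m, the light chain of class I molecules, averaged 13.65 ± 0.2 in tumours and 13.46 ± 0.18 in TN4 (SD, n = 3 each) and was not called.

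Cytokine signalling had 5 genes higher and 1 lower of 43, with a median of -0.18. The feedback inhibitors Cish (9.11, 9.1 and 8.21 in tumours, against 5.65, 7.4 and 6.52 in TN4, adjusted p = 0.00496) and Socs3 (8.67, 8.52 and 8.56 in tumours, against 6.49, 6.66 and 6 in TN4, adjusted p = 0.000247) were both higher. Il7r, the interleukin 7 receptor, was not called (8.53 ± 0.19 in tumours and 9.23 ± 0.45 in TN4, SD, n = 3 each). Among 29 cell cycle inhibitors and p53 targets 3 were higher and 0 lower, with a median of 0.42. Gadd45a, a stress-induced growth arrest gene, was 4.87-fold higher (adjusted p = 0.00892), a call lost without tumour 1 (0.0582) or TN4 replicate 1 (0.0642). Btg1, an antiproliferative factor, was 2.36-fold higher (adjusted p = 0.00561), a call lost under median scaling and when only the 6 arrays were fitted. Gadd45g was 6.03-fold higher (adjusted p = 0.0474), a call kept only when TN4 replicate 2 was the array left out (0.0641 to 0.264 without each of the others).

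Glycolysis and hypoxia genes were called higher for 3 and lower for 2 of 27, with a median of 0.01. Ddit4, a stress-induced inhibitor of mTOR, had 11.05, 12.49 and 11.37 in the tumours, against 8.37, 9.6 and 9.47 in TN4 (5.61-fold higher, adjusted p = 0.00379). Vegfa, the vascular growth factor, was not detected in the tumours and had 7.3, 6.71 and 6.49 in TN4, at least 5.06-fold lower (adjusted p = 0.00187). Gapdh and Ldha differed by -0.02 and -0.14 and were not called.

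Genes of MYC activity and ribosome assembly were called lower for 2 of 41 and higher for 0 (median -0.24), T lineage transcription factors higher for 1 and lower for 2 of 40 (-0.1), apoptosis genes higher for 1 of 29 (0.02) and DP stage genes higher for 2 and lower for 1 of 22 (-0.06). Bcl2l1, the survival factor BCL-XL, had 8.22, 7.98 and 7.69 in the tumours, against 6.31, 5.88 and 6.81 in TN4 (adjusted p = 0.0324), a call lost without tumour 1 or 2 or TN4 replicate 1 or 2 (0.0841 to 0.138). Bcl2l1 normally appears at ISP and DP, with means of 7.81 and 8.51. Bcl2 had 5.92, 5.54 and 6.98 in the tumours, against 6.81, 8.26 and 7.63 in TN4, and was not called (adjusted p = 0.0823). Of 16 transcripts often used as references 1 was called, Gusb, at 10.4 ± 0.25 in tumours and 11.15 ± 0.14 in TN4 (SD, n = 3 each, adjusted p = 0.0442), and its call was lost whichever array was left out. Tubb5, a tubulin, and Eef1a1, an elongation factor, differed by 0.06 and -0.08.

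**Figure D5:**
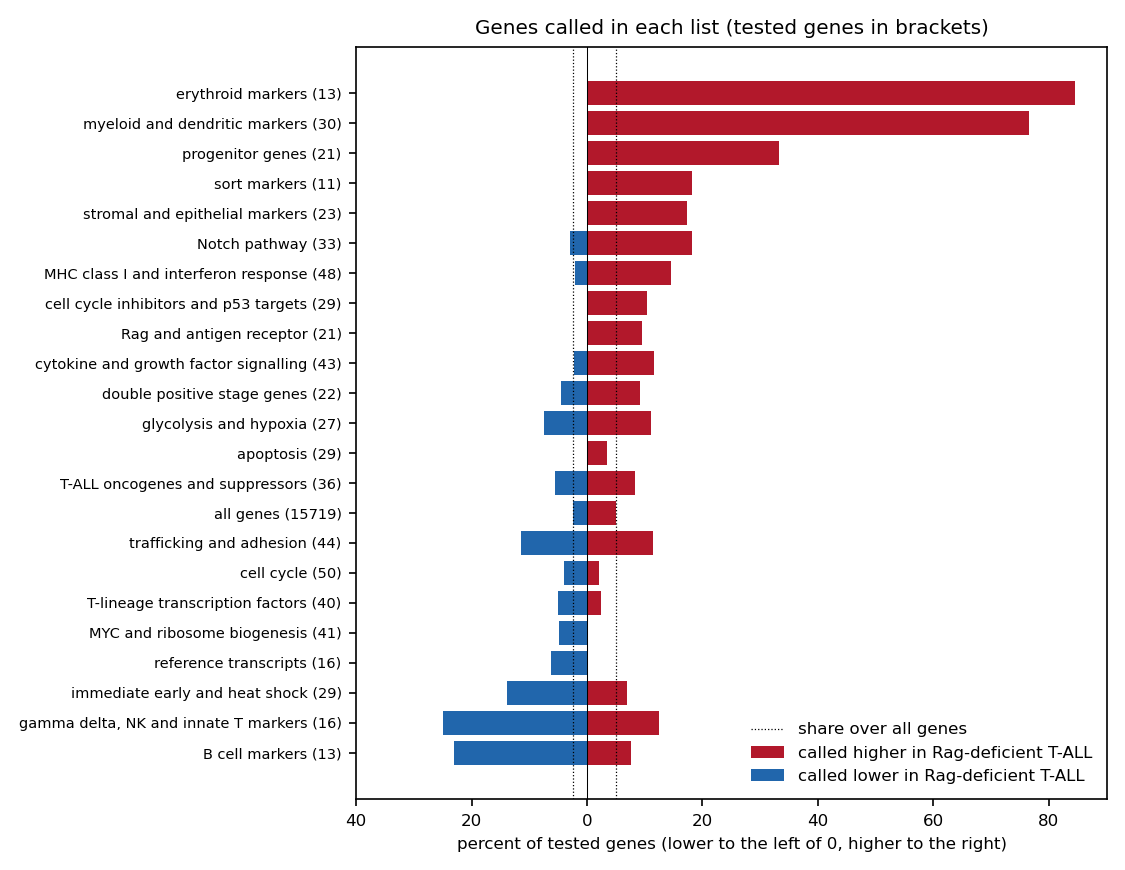
Percent of the tested members of each gene list (horizontal axis) called higher (bars to the right) or lower (bars to the left) in Rag-deficient T-ALL against TN4, with dotted lines at the 4.97% and 2.36% of all genes. The erythroid and myeloid lists stand out on the right, and the gamma delta and natural killer list has the longest bar on the left.

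The tumours were then set against every normal stage, which asks which differences from TN4 remain when any stage may serve as the match. Probes called and at least 2-fold higher against all 7 stages numbered 329 (1.14%, in 224 genes), and 62 were lower (0.216%, in 43 genes). Of the 1006 probes at least 2-fold higher than TN4, 596 (59.2%) were above all 16 thymocyte arrays in all 3 tumours. For another 155 (15.4%) the tumour mean lay within the range of stage means, the highest stage being ETP for 85, DP for 41, TN2 for 17 and TN3a for 10. Of the 479 lower probes, 153 (31.9%) were below all 16 arrays and 134 (28%) within the stage range, the lowest stage being DP for 70, TN2 for 26 and ETP for 15. Among all 28736 tested probes, the 3 tumours were above all 16 arrays for 1097 and below them for 460. The 1006 and 479 probes were picked by their difference from TN4, which is part of the 16 arrays, so their shares are raised by that choice. Called probes numbered 5102 (17.8%) against ETP, 5600 (19.5%) against TN2, 4354 (15.2%) against TN3a, 1568 (5.46%) against TN3b, 1839 (6.4%) against TN4, 1425 (4.96%) against ISP and 6341 (22.1%) against DP. These counts share the tumour arrays, and the stages have 2 or 3 arrays each.

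Rag-proficient T-ALL, 7 arrays of tumours from F1 (WB x B6/Ly5.1) animals, gives the comparison within leukaemia. Against TN4 it had 3904 called probes (13.6%), a comparison that uses the same TN4 arrays. In the direct test of Rag-deficient against Rag-proficient T-ALL 192 probes (0.668%) were called. Among the 1839 probes called against TN4, 47 (2.56%) differed between the tumour groups, 37 lower and 10 higher in Rag-deficient T-ALL. Strain goes with Rag status in this contrast, so the 2 cannot be told apart. Slide 3 also held 1 Rag-proficient array, and on it all 3 Rag-deficient arrays lay on the side of the fitted difference for 42 of the 47 probes. These arrays were also in the fit that picked the 47 probes, so the count is no separate check on slide.

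Tcrg-V4 and Tcrg of the gamma locus separated the tumour groups. Tcrg-V4 had 6.7, 6.42 and 6.03 in Rag-deficient T-ALL, against 9.09 to 12.81 with a median of 11.04 in Rag-proficient T-ALL (log2 -4.8, adjusted p = 1.47e-05). Tcrg had 4.42, 4.25 and 4.83 in Rag-deficient T-ALL, against 6.9 to 10.65 with a median of 9.09 in Rag-proficient T-ALL (log2 -4.63, adjusted p = 4.96e-05). Neither gene's groups overlapped. Tcrg-V7 did overlap, with 5.82, 5.69 and 5.23 in Rag-deficient and 4.96 to 5.92 in Rag-proficient T-ALL. Tcrg-V5 overlapped too, with 4.21, 4.19 and 4.21 in Rag-deficient and 4.15 to 4.31 in Rag-proficient T-ALL. The beta segments were not called between the tumour groups. For the Tcrb-V8.2 probe that was lower than in TN4, Rag-deficient T-ALL had 4.58, 4.39 and 7.73. Rag-proficient T-ALL had 5.58 to 14.47 for that probe, so its groups overlapped but were not at 1 level. Tcrb-V8.3 averaged 4.23 in Rag-deficient and 4.36 in Rag-proficient T-ALL, and Trbv1 4.69 in Rag-deficient and 4.43 in Rag-proficient T-ALL, with adjusted p = 1 and 0.821. Dtx1 averaged 11.59 in both groups, Hes1 9.36 in Rag-deficient and 9.09 in Rag-proficient T-ALL, and Lmo2 9.43 in Rag-deficient and 10.42 in Rag-proficient T-ALL, and none of these was called. Il2ra averaged 9.37 in Rag-deficient and 7.49 in Rag-proficient T-ALL, a difference of 1.88 that was not called (adjusted p = 0.309).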

How the data were processed

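RNA of 10 T-ALL and 16 thymocyte samples was hybridised to Illumina mouse bead arrays after isolation with RNAzol B and biotin labelling with an Ambion MessageAmp kit, per the labels' protocols. The deposited intensity tables, 1 for T-ALL and 1 for thymocytes, hold linear values that by their range were neither background-corrected nor normalised. Per the file headers they pair every intensity with a detection p-value. Of the dimmest twentieth of probes, 99.74% to 100% on T-ALL arrays had such a p-value under 0.01, against 0% on the thymocyte arrays, so these 2-sided values were turned into one-sided ones. A further deposited table joins log2 values of all arrays, but its thymocyte rows sit beside displaced probe names (rank correlation near 0 by name), so it served only as an alternative after the rows were put back. For the authors' software and settings, nothing is given in the sources used here.

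The 46089 shared probes were joined by probe ID, corrected with normexp from the detection p-values (offset 16), taken to log2 and quantile-normalised over all 26 arrays with limma 3.58.1 (R 4.3.3). The 28736 probes with a one-sided detection p under 0.01 on at least 2 arrays were fitted with 1 mean per group over all arrays (lmFit and eBayes, 17 residual degrees of freedom), with 2-sided tests, Benjamini-Hochberg adjustment over all of them and a threshold of 0.05. Precision is limited by the 3 arrays in each group. All 26 arrays share 1 estimate of the spread. For "at least N-fold", each array of the dim group entered at its lowest detected value or the probe's own, whichever was higher. A platform annotation table named 35667 of 46089 probes with 1 gene, 10422 with none here and 0 with several, and 28519 symbols were updated through gene IDs of RefSeq.

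Named genes were the 15 with the largest differences in each direction among those called, at least 2-fold and without overlap, all members of the sort, Rag and receptor, Notch and T-ALL oncogene lists, up to 4 called in each direction and 2 uncalled of each other list, and up to 5 each way against every stage. Genes given beyond that rule (among them Mki67, Top2a, Cxcr4, Epor, Car2 and Klf1) and the receptor segments were chosen after their values were seen. Members and lists were chosen with earlier results of these data known. Of 5002 genes with several probes, 2 (Herc2 and Nfix) had probes called in opposite directions. Alternatives were median scaling, no background correction, an offset of 50, 2 other filters on dim probes, the 6 arrays alone, the slide as a random block (statmod 1.5.0), trend and robust moderation, the joint table, and leaving out in turn each of the 6 arrays and TN2 replicate 2.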

Additional observations from a re-analysis of the deposited data

Results flagged for a closer look

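For 15 of the genes named or listed here, the difference between Rag-deficient and Rag-proficient T-ALL itself passed limma's test (adjusted p under 0.05 over all probes), so that their difference from TN4 depends on which tumours are compared. Strain goes with Rag status in that contrast. In Rag-deficient T-ALL 12 were lower and 3 higher.

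The receptor probes Tcrg-V4 (-4.8 on the log2 scale) and Tcrg (-4.63) were lower, and Trdv2-2, a delta variable segment, was higher (2.12), with 5.93, 7.82 and 6.53 in Rag-deficient T-ALL, against 4.26 to 4.91 in Rag-proficient T-ALL. Trdv2-2 was not called against TN4.

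A block of 7 of 23 stromal genes was lower in Rag-deficient T-ALL and 0 were higher. Over all genes, 126 of 15719 were called in this contrast, both directions together. These were the matrix genes Sparc (-3.49), Col6a1 (-3.05), Col4a2 (-2.97), Col4a1 (-2.92) and Dcn (-2.44), the chemokine Cxcl12 (-3.22) and the growth factor receptor Pdgfra (-1.36). Sparc had 5.85, 6.58 and 4.56 in Rag-deficient T-ALL, against 7.98 to 10.48 with a median of 8.77 in Rag-proficient T-ALL. None of the 7 was called between Rag-deficient T-ALL and TN4. On slide 3, which held 1 Rag-proficient array, all 3 Rag-deficient arrays lay below it for 7 of the 7. The fit that picked these 7 genes included the same arrays, so this is no separate check on slide.

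Vegfa (-1.91), the monocyte receptor Cd14 (-1.29) and Dnajc6 (-1.24) were lower as well. The immunoproteasome subunit Psmb9 (1.14) and the chemokine receptor Cxcr4 (1.19) were higher. Cxcr4 had 10.85, 10.91 and 10.61 in Rag-deficient T-ALL, against 9.04 to 10.14 with a median of 9.38 in Rag-proficient T-ALL.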

How the results depend on the processing

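Of 225 named genes and segment probes, 0 changed sign with a call in the main fit or in the alternative. Sign changes without a call in either were not counted and did occur, as for Rag2 (-0.09, with alternatives from -0.6 to 0.55). Of the 100 called ones, 60 were called in every alternative that tested them and 40 lost the call in at least 1. Of the 125 uncalled ones, 13 gained it. The 1839 called probes became 1074 without TN4 replicate 2, up to 1556 with another of the 6 arrays left out, and 2439 without TN2 replicate 2, an array of neither group. TN2 replicate 2 detected 21.34% of probes, the lowest share of all arrays, the next lowest being 34.72% on DP replicate 1. It was kept in the main fit and so entered the shared estimate of the spread and the TN2 comparison. Arrays left out below are the 6 of both groups. Median scaling called 2431, of which 89.8% were higher against 68%. The 1485 called at 2-fold or more became 459 without background correction, 765 with an offset of 50, 499 in the joint table and 1004 to 1401 with arrays left out. Those beyond every stage (391) became 776 under median scaling (764 higher and 12 lower), 173 without background correction, 258 with an offset of 50, 189 in the joint table and 351 to 414 with arrays left out. The 47 that differed between tumour groups became 26 with slide as a random block and 25 (without Rag-deficient replicate 2) to 123 (without replicate 3) with arrays left out. The cause of these changes was not tested. The 108 called list members became 90 to 124 under settings that kept all arrays of both groups. No paired analysis was possible because the labels carry no replicate numbers. Genes not detected in 1 group have only a bound.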
